A study of Mus musculus with 12 samples.

Results

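Of 9297 mouse genes with a group mean of at least 5 CPM (counts per 1000000) in some group of each of 2 tumour cell lines, 47 (0.506%) responded to 8 Gy of ionising radiation in opposite directions. In 19 of them RNA was at least 2-fold higher in irradiated KPC cells and at least 2-fold lower in irradiated MB49 cells, each against its own controls, and in 28 the directions were turned round. The deposited table listed 57180 genes in all. Each count was divided by its library total for this. A gene was a member when log2((8 Gy mean + 0.5)/(control mean + 0.5)) was 1 or more in one line and -1 or less in the other, and when the 3 irradiated and 3 control libraries did not overlap in either line. The genes were chosen by these CPM ratios, so the responses given for them below are a description and carry no test.

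KPC is a mouse pancreatic ductal adenocarcinoma line and MB49 a mouse bladder cancer line; the labels give genotype WT for all cells of both, and both were grown in DMEM with serum. The 4 groups were KPC cells after 8 Gy, KPC controls, MB49 cells after 8 Gy and MB49 controls, with 3 libraries each. Treated cells were cultured for 48 h before RNA was taken; no time is given for the controls. The design text also speaks of senescent cells, but no sample label names a senescent library. Whether replicate libraries were grown as separate cultures is not stated, so tests measure the spread between these libraries, which may be technical.

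Library totals ran from 19006015 to 26337950 estimated counts. Rn18s-rs5, a ribosomal RNA locus, took 5.11% of the counts of KPC control replicate 1 and 0.14 to 0.55% of those of the other libraries. Of 10 pancreatic duct and progenitor markers, the summed level was 601 to 647 CPM in irradiated KPC libraries and 398 to 452 CPM in KPC controls, with Krt19 at 347 to 365 CPM after 8 Gy and 77.7 to 100.4 CPM in controls. The lineage factors Pdx1 (17.6 to 19.6 CPM after 8 Gy and 76.85 to 89.8 CPM in controls) and Foxa2 (4.33 to 5.04 CPM after 8 Gy and 11.1 to 15.3 CPM in controls) went the other way from that sum. Onecut1 was at 0 in every library and Cftr at 0 in every KPC library. Of 12 urothelial markers, the sum was 14.95 to 15.7 CPM in irradiated MB49 libraries and 26.8 to 34.9 CPM in MB49 controls, and each of the 5 uroplakins measured had at most 0.324 CPM there. Other markers of that list were measurable in MB49: Gata3 had 3.197 to 3.95 CPM after 8 Gy and 14.65 to 18.1 CPM in controls, Foxa1 had 4.69 to 5.104 CPM after 8 Gy and 11 to 13.9 CPM in controls, and Krt14 had 5.31 to 6.57 CPM after 8 Gy and 0.562 to 0.782 CPM in controls. Neither list was confined to its own line. In KPC the urothelial sum was 39.96 to 44.0 CPM after 8 Gy and 31.6 to 42.2 CPM in controls. The pancreatic sum in MB49 was 142.5 to 182.5 CPM after 8 Gy and 173 to 206 CPM in controls. The sum of 13 immune markers was low but higher after 8 Gy in both lines. In KPC it was 1.49 to 1.67 CPM after 8 Gy and 0.146 to 0.478 CPM in controls. In MB49 it was 0.909 to 1.64 CPM after 8 Gy and 0.243 to 0.889 CPM in controls. Csf1r made most of the sum in irradiated KPC libraries (1.17 to 1.53 CPM). Ptprc, the pan-leukocyte marker, was at 0 in all KPC libraries and MB49 controls and at most at 0.0455 CPM after 8 Gy in MB49. The sum of 6 fibroblast markers was 47.3 to 53.2 CPM in irradiated KPC libraries and 111 to 156 CPM in KPC controls, against 138 to 205 CPM in irradiated MB49 libraries and 52.2 to 84.4 CPM in MB49 controls, the same direction in each line as the 28 genes higher in MB49. Of that list, Pdgfrb made most of the sum in KPC and Dcn in MB49, and Lum was at 0 in all KPC libraries and in all irradiated MB49 libraries. In MB49, Dcn and Pdgfra rose with that sum. Col3a1 went the other way, with 2.81 to 27.8 CPM in MB49 controls and 0.2275 to 0.316 CPM after 8 Gy. The part of these markers in the results was not tested. In such bulk RNA, fewer cells of one state and less RNA per cell cannot be told apart.

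Ionising radiation breaks DNA, and the damage halts the cell cycle through the ATM and ATR kinases and p53. In tumour cells it also brings interferon signalling, through DNA or RNA sensed in the cytoplasm, and NF-κB signalling. Much of the response to a single dose is shared between cell lines. The genes described here are not all that differed between the lines, but those set apart by a threshold in both.

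**Figure D1:**
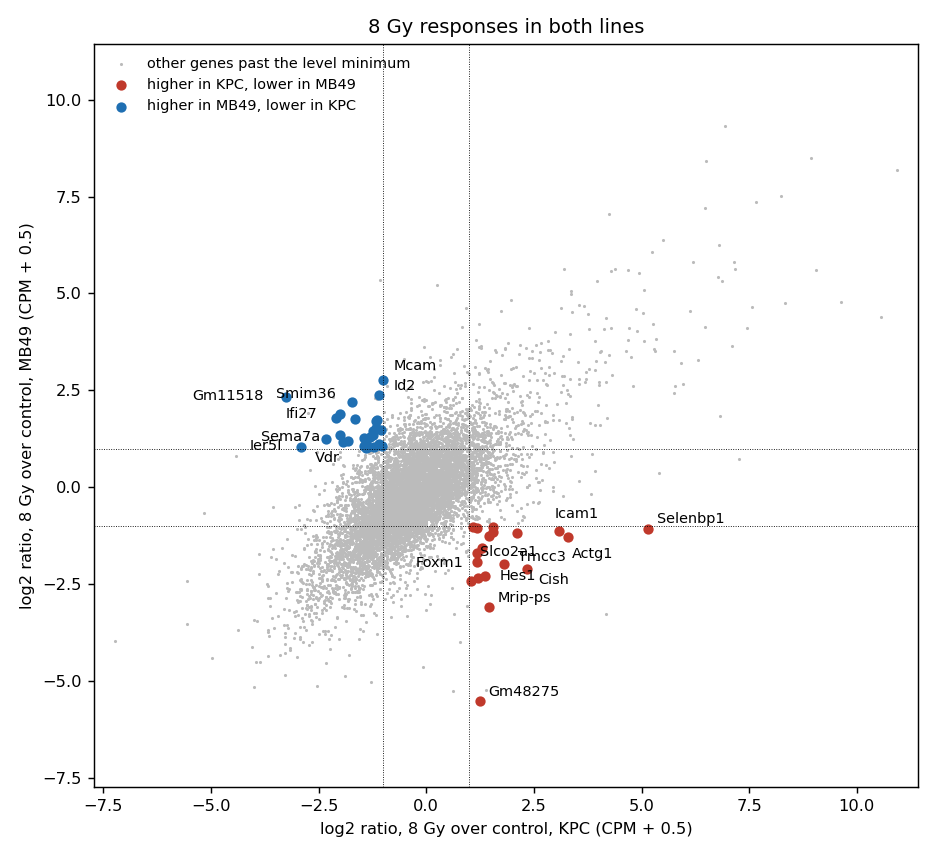
Each point is 1 of 9297 genes; the x axis is the log2 ratio of 8 Gy over control mean CPM (each + 0.5) in KPC cells and the y axis the same in MB49 cells, with dotted lines at -1 and 1. The 19 genes higher in KPC lie at the lower right, with Selenbp1 farthest along x, and the 28 genes higher in MB49 lie at the upper left.

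Same-direction responses were more frequent, by a margin that depended on the call. By the same 2-fold and no-overlap conditions, 447 genes were higher in both lines (4.81%) and 1387 were lower in both (14.9%), against 0.204% for genes higher in KPC and lower in MB49 and 0.301% for the reverse. In KPC alone 9.42% of the genes were higher and 24.5% lower, and in MB49 alone 11.8% were higher and 23.4% lower. Scaling by library totals left the median of all 9297 log2 ratios at -0.39 in KPC and -0.27 in MB49, so a ratio of 1 lies above the typical gene by more than its face value and a ratio of -1 by less below it. In edgeR's quasi-likelihood test with TMM scaling over 14362 genes (Benjamini-Hochberg adjusted p under 0.05), which centred the medians at -0.01 and 0.04, 4490 genes were called higher and 4596 lower in KPC, and 5066 higher and 4540 lower in MB49. By that test 5766 genes (40.1%) were called in the same direction in both lines and 891 (6.20%) in opposite directions. For the difference between the 2 responses, in size or direction, it called 6162 genes (42.9%). With library totals in that fit the split was 3086 higher and 6620 lower in KPC, and 3821 higher and 5850 lower in MB49. Of the 19 genes higher in KPC, 17 were called higher there (31.3% of all tested) and 19 lower in MB49 (31.6%); of the 28, 25 were called lower in KPC (32.0%) and 26 higher in MB49 (35.3%). In either direction 63.3% of all tested genes were called in KPC and 66.9% in MB49. Since the rule used both contrasts, nothing is read from these counts. The TMM-scaled log2 fold change kept the sign of the ratio for each of the 47 genes in both lines. A minimum absolute ratio of 1 made this likely in advance, so nothing is read from it.

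Among the 19 genes higher in KPC, 3 act in the nucleus on transcription. Foxm1 is the forkhead factor that drives the genes of G2 and mitosis. Foxm1 had 185, 167 and 189.8 CPM in irradiated KPC libraries, against 69.4, 74.8 and 95.1 CPM in KPC controls (log2 ratio 1.17), and 67.4, 57.5 and 47.7 CPM in irradiated MB49 libraries, against 244, 226 and 184 CPM in MB49 controls (log2 ratio -1.91). Neither pair of groups overlapped, and the 3 irradiated MB49 libraries lay below all 9 others. On the TMM scale the log2 fold change of Foxm1 was 1.57 (SE 0.16) in KPC and -1.62 (SE 0.16) in MB49. On a list of 47 G2 and mitosis genes, all measured, 40 were called higher and 1 lower in KPC cells after 8 Gy. The list's median log2 fold change there was 1.72. In MB49 cells 19 were called higher and 12 lower, with a median of 0.15. Of the 47, 8 were called in opposite directions, against 6.20% of all tested genes. Those 8 include Foxm1, the one member by the rule, which was chosen for its opposite ratios.

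Hes1, the basic helix-loop-helix repressor that Notch signalling induces, had the lowest MB49 ratio of the protein-coding members. In KPC, Hes1 stood at 97.7, 99.3 and 91.8 CPM after 8 Gy and at 38.9, 35.6 and 36.5 CPM in controls, and in MB49 at 4.998, 4.19 and 4.32 CPM after 8 Gy and at 20.2, 24.2 and 27.1 CPM in controls, with log2 ratios of 1.37 in KPC and -2.28 in MB49. KPC libraries lay above MB49 libraries in both states, and the gap was wider after 8 Gy: the log2 ratio of KPC over MB49 was 4.27 after 8 Gy and 0.62 in controls. Hes1 had TMM-scaled log2 fold changes of 1.76 (SE 0.13) in KPC and -2.11 (SE 0.14) in MB49. Of 23 measured Notch pathway genes, 9 were called higher and 9 lower in KPC and 8 higher and 9 lower in MB49, with medians of 0.00 and 0.01. The 1 gene of them called in opposite directions was Hes1 itself (6.20% of all tested genes were so called). Gps2, a subunit of the NCoR and SMRT corepressor complexes, lay just inside the threshold. Its means were 24.4 ± 0.465 CPM in irradiated and 11.2 ± 1.56 CPM in control KPC cells, and 8.52 ± 0.124 CPM in irradiated and 17.6 ± 1.301 CPM in control MB49 cells (SD, n = 3 each), with log2 ratios of 1.09 in KPC and -1.01 in MB49.

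Cish and Icam1 belong to cytokine signalling. Cish, an SH2 protein of the SOCS family that STAT5 induces and that dampens the receptors upstream of STAT5, ranked first of the 19 by the weaker of its 2 responses. Irradiated KPC libraries had 25.3, 23.9 and 29.4 CPM of Cish, against 4.66, 4.82 and 4.73 CPM in KPC controls (log2 ratio 2.35), and irradiated MB49 libraries 2.47, 2.94 and 2.32 CPM, against 13.2, 11.5 and 13.5 CPM in MB49 controls (log2 ratio -2.105). Replicates within each group lay close together, and irradiation turned the order of the lines: KPC was the higher line after 8 Gy and MB49 in controls. Cish had TMM-scaled log2 fold changes of 2.85 (SE 0.16) in KPC and -2.004 (SE 0.17) in MB49. Its relatives did not share the pattern. Socs1 rose in both lines (log2 fold change 5.22, SE 0.31, in KPC and 3.87, SE 0.28, in MB49; edgeR adjusted p 8.11e-09 and 4.91e-08), as did Socs3 (1.24, SE 0.14, and 1.95, SE 0.14; adjusted p 6.85e-07 and 2.60e-09), and Socs2 fell in both (-0.97, SE 0.20, and -1.17, SE 0.25; adjusted p 0.000445 and 0.000489).

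Icam1 is the adhesion molecule that leukocyte integrins bind, and a target of NF-κB and of interferon-γ signalling. Icam1 had 11.3, 10.2 and 12.3 CPM in irradiated KPC libraries, against 0.657, 0.842 and 1.196 CPM in KPC controls (log2 ratio 3.08), and 16.7, 15.8 and 13.2 CPM in irradiated MB49 libraries, against 36.4, 31.6 and 33.3 CPM in MB49 controls (log2 ratio -1.12). The KPC controls held 60 Icam1 counts over 3 libraries, which makes the fold in KPC less certain than that in MB49, and irradiated KPC cells still had less Icam1 than either MB49 group. On the TMM scale the log2 fold change of Icam1 was 4.02 (SE 0.21) in KPC and -0.85 (SE 0.16) in MB49. Of 28 measured NF-κB pathway genes, 17 were called higher and 7 lower in KPC, and 12 higher and 12 lower in MB49. The medians were 0.92 and -0.11. In opposite directions 4 were called (6.20% of all), and these include Icam1 itself, chosen for its opposite ratios. Wars1 encodes cytoplasmic tryptophanyl-tRNA synthetase, which interferon-γ induces. In KPC, Wars1 stood at 787, 804 and 852 CPM after 8 Gy and at 305, 322 and 362 CPM in controls, and in MB49 at 140.4, 134 and 111 CPM after 8 Gy and at 405, 384 and 349 CPM in controls, with log2 ratios of 1.303 in KPC and -1.56 in MB49. After 8 Gy KPC lay above MB49 in every library, and the control libraries of the lines overlapped.

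Promoter windows from RefSeq (GRCm38.p6, 250 bases before to 50 after an annotated start) were at hand for 10 of the 19 genes, 19 of the 28 and 7280 of the 9297. The GAS motif, TTCNNNGAA, to which STAT proteins bind, was searched on both strands and lay in 2 of the 10 windows and 3 of the 19, against 6.58% of the 7280. The 2 of the 10 were Cish and Icam1, and their windows are shown for that reason. In the Cish window, on chromosome 9 (chr9:107296409-107296708, + strand), the capitals mark both GAS matches, the first of which begins at the annotated start and the other 11 bases after it. In the Icam1 window (chr9:21015690-21015989, + strand), the capitals mark a GAS match whose first base lies 42 bases before the annotated start and, after the start, a TATA box (TATAAA). The matches do not overlap one another.
Cish promoter: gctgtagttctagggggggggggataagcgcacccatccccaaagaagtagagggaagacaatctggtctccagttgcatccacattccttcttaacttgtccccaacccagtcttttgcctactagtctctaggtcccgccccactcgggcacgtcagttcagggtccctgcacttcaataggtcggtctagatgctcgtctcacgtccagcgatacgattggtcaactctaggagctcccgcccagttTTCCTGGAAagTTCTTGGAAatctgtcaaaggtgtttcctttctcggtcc
Icam1 promoter: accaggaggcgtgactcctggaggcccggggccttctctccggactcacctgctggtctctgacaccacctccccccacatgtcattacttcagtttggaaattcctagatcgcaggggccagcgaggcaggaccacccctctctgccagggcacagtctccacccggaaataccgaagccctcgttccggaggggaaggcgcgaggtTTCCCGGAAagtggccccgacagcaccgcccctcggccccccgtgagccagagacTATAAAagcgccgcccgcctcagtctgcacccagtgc
TATAAA, on either strand, lay in 4 of the 10 windows (Icam1, Slco2a1, Selenbp1 and Frmd4a) and in 0 of the 19, against 6.24% of the 7280. In the Slco2a1 window (chr9:103008237-103008536, + strand) its first base lies 29 bases before the annotated start, and it is in capitals.
Slco2a1 promoter: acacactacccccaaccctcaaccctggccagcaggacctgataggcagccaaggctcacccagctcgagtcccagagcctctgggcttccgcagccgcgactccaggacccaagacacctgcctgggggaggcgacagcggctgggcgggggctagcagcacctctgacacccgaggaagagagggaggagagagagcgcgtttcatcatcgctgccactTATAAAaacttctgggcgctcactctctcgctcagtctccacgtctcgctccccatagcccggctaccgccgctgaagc
A match is a run of letters, and no occupancy was measured here.

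**Figure D2:**
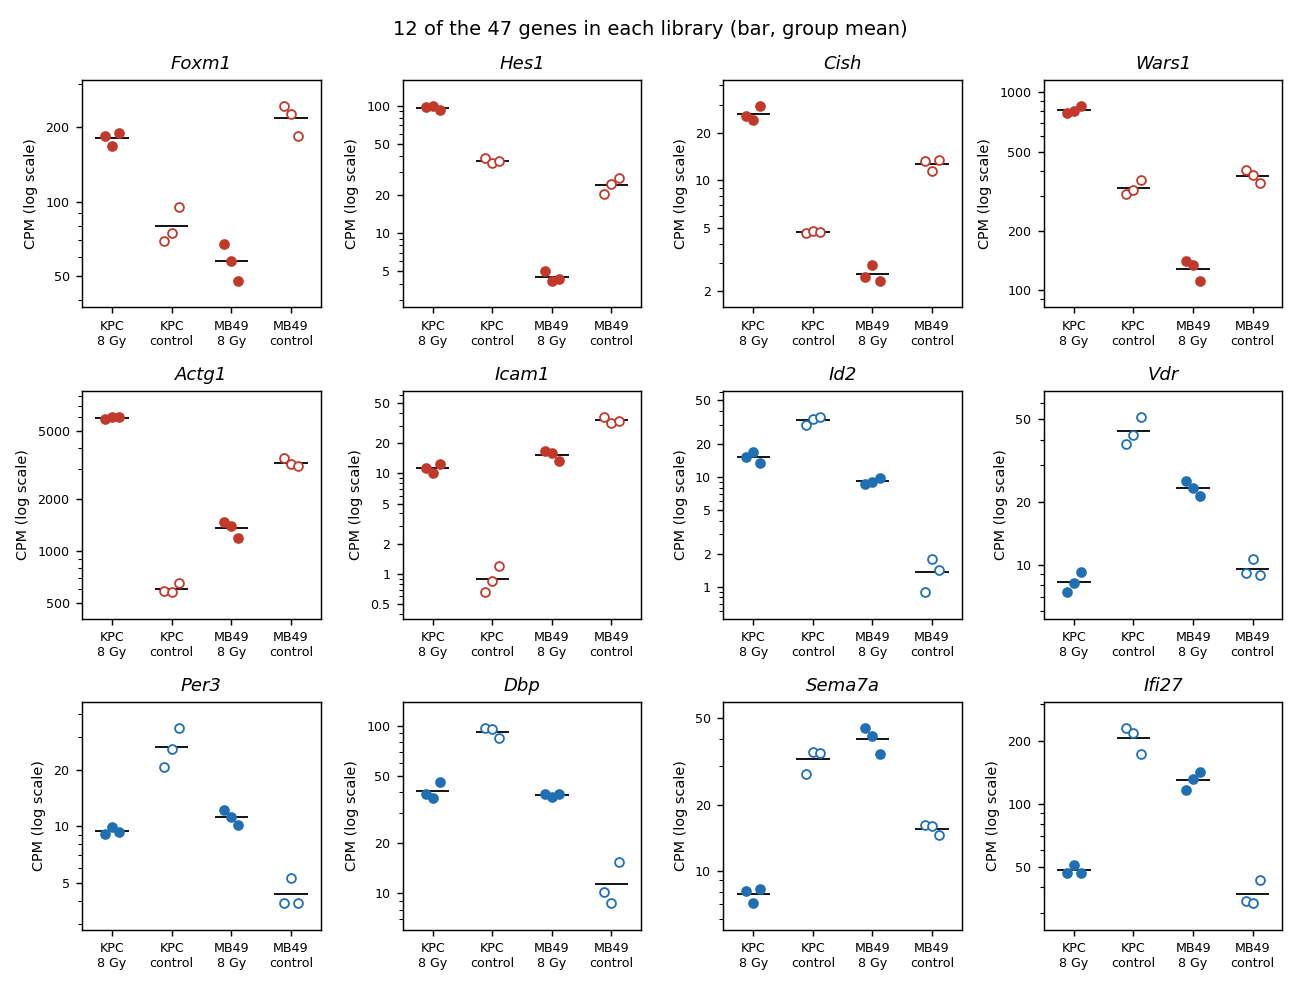
Level in CPM (log scale) of 12 of the 47 genes in each of the 12 libraries; filled points are 8 Gy, open points controls, and bars are group means of 3 libraries. The first 6 panels (red) are higher in irradiated KPC and lower in irradiated MB49, and the last 6 (blue) the reverse, with no overlap between 8 Gy and control in any line.

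Among the 47, the largest difference in mean CPM was that of Actg1, cytoplasmic γ-actin. The KPC libraries held 5835, 6017 and 5991 CPM of Actg1 after 8 Gy and 584, 575 and 650.4 CPM without it (log2 ratio 3.301), and the MB49 libraries 1473, 1403 and 1189 CPM after 8 Gy and 3482, 3207 and 3130 CPM without it (log2 ratio -1.27). On the TMM scale the log2 fold change of Actg1 was 3.69 (SE 0.14) in KPC and -0.97 (SE 0.13) in MB49. Its sister gene Actb, β-actin, had 2475 ± 39.5 CPM in irradiated KPC cells and 1854 ± 257 CPM in KPC controls, against 2729 ± 316 CPM in irradiated MB49 cells and 10620 ± 609 CPM in MB49 controls (SD, n = 3 each). Actb was called in the same opposite directions (log2 fold change 0.81, SE 0.14, in KPC and -1.66, SE 0.14, in MB49; edgeR adjusted p 6.44e-05 and 1.50e-08) but missed the 2-fold condition in KPC. Of 39 measured cytoskeleton genes, 23 were called higher and 5 lower in KPC and 14 higher and 13 lower in MB49. In opposite directions 7 were called (6.20% of all), and these include Actg1 itself, chosen for its opposite ratios.

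Tmcc3, Tor1aip1, Frmd4a and Gem act on membranes, the nuclear envelope and the cell cortex. Tmcc3 encodes a coiled-coil protein of the endoplasmic reticulum membrane. Irradiated KPC libraries had 22.3, 23.8 and 21 CPM of Tmcc3, against 4.71, 6.08 and 7.38 CPM in KPC controls (log2 ratio 1.801), and irradiated MB49 libraries 31.1, 29.1 and 38.4 CPM, against 124, 152 and 119.6 CPM in MB49 controls (log2 ratio -1.98). It remained higher in MB49 in both states, with a log2 ratio of KPC over MB49 of -0.55 after 8 Gy and -4.33 in controls. Tor1aip1 encodes LAP1, the inner nuclear membrane partner of torsinA. Its means were 63.8 ± 0.936 CPM in irradiated and 27.7 ± 3.81 CPM in control KPC cells, and 16.4 ± 1.19 CPM in irradiated and 53.99 ± 9.53 CPM in control MB49 cells (SD, n = 3 each), with log2 ratios of 1.19 in KPC and -1.69 in MB49. The gene Tor1aip2, which overlaps it on the other strand in the reference annotation, was lower after 8 Gy in both lines by its log2 ratio (-0.74 in KPC and -1.57 in MB49). Frmd4a, a FERM-domain scaffold of epithelial polarity, was higher in KPC after 8 Gy and in MB49 in controls. Frmd4a averaged 88.2 ± 4.03 CPM in irradiated KPC cells and 29.9 ± 8.42 CPM in KPC controls, and 35.4 ± 3.397 CPM in irradiated MB49 cells and 79.7 ± 12.7 CPM in MB49 controls (SD, n = 3 each; log2 ratios 1.55 in KPC and -1.16 in MB49). Gem, a small GTPase that inhibits voltage-gated calcium channels, had overlapping controls in the lines. Its means were 33.1 ± 4.396 CPM in irradiated and 14.3 ± 2.15 CPM in control KPC cells, and 6.77 ± 1.199 CPM in irradiated and 14.5 ± 0.809 CPM in control MB49 cells (SD, n = 3 each), with log2 ratios of 1.18 in KPC and -1.05 in MB49.

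Metabolism and transport contributed Selenbp1, Slco2a1 and Pdk1. Selenbp1, which encodes methanethiol oxidase, had the highest fold in KPC of all 47. Irradiated KPC libraries had 295, 292 and 299.8 CPM of Selenbp1, against 7.64, 8.28 and 7.69 CPM in KPC controls (log2 ratio 5.14), and irradiated MB49 libraries 2.52, 2.84 and 2.28 CPM, against 4.799, 5.22 and 7.52 CPM in MB49 controls (log2 ratio -1.06). In MB49 it was a low-level gene, and its ratio there rested on 164 counts after 8 Gy against 393 in controls. Slco2a1 carries prostaglandins into cells. Slco2a1 had 101, 93.3 and 109 CPM in irradiated KPC libraries, against 20.5, 21.9 and 27.1 CPM in KPC controls (log2 ratio 2.099), and 79.9, 72.6 and 54.5 CPM in irradiated MB49 libraries, against 177, 163 and 127 CPM in MB49 controls (log2 ratio -1.17). Pdk1, the kinase that inhibits pyruvate dehydrogenase and a target of hypoxia-inducible factor, lay near the threshold in MB49. Pdk1 averaged 59.6 ± 4.52 CPM in irradiated KPC cells and 19.9 ± 2.08 CPM in KPC controls, and 15.3 ± 0.4102 CPM in irradiated MB49 cells and 31.4 ± 3.24 CPM in MB49 controls (SD, n = 3 each; log2 ratios 1.56 in KPC and -1.01 in MB49). On the list of glycolysis and hypoxia genes, 36 of 41 were called higher and 2 lower in KPC, and 27 higher and 7 lower in MB49. The medians were 1.34 and 0.82. Opposite calls numbered 7 (6.20% of all), and these include Pdk1 itself, chosen for its opposite ratios.

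The remaining 5 of the 19 were 4 pseudogenes (Mrip-ps, Gpr137b-ps, Gm4739 and Gm8203) and the non-coding Gm48275. Their libraries scattered widely. Gm48275, for example, had 10.4, 11.8 and 7.13 CPM in irradiated KPC libraries and 4.21, 2.98 and 4.38 CPM in KPC controls, against 1.79, 0.694 and 0 CPM in irradiated MB49 libraries and 102, 68.8 and 9.56 CPM in MB49 controls. Over the 6 pseudogenes among the 47, the median coefficient of variation within a group was 49.96%, against 12.2% over the 38 protein-coding members. Gpr137b, the parent of Gpr137b-ps, rose in both lines (log2 fold change 1.05, SE 0.11, in KPC and 1.78, SE 0.11, in MB49; edgeR adjusted p 2.27e-07 and 3.56e-10), so the copy had the opposite sign to it in MB49; reads of such copies may be shared with the parent, and each pseudogene value is uncertain.

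Among the 28 genes higher in irradiated MB49 and lower in irradiated KPC, Id2, Vdr, Per3 and Dbp regulate transcription. Id2 encodes an inhibitor of basic helix-loop-helix factors and is a target of BMP signalling. The KPC libraries held 15.2, 17.1 and 13.4 CPM of Id2 after 8 Gy and 29.97, 33.6 and 35.1 CPM without it (log2 ratio -1.09), and the MB49 libraries 8.63, 9.07 and 9.78 CPM after 8 Gy and 0.8901, 1.77 and 1.42 CPM without it (log2 ratio 2.38). The MB49 controls held 92 Id2 counts over 3 libraries, which makes the fold in MB49 less certain than that in KPC. In MB49 it passed the level minimum through the irradiated group alone. The irradiated lines drew together without meeting: KPC was higher in both states, by 0.702 log2 units after 8 Gy and 4.17 in controls. On the TMM scale the log2 fold change of Id2 was -0.73 (SE 0.15) in KPC and 3.05 (SE 0.19) in MB49. Its family did not follow it in KPC, where Id1 and Id3 rose (log2 fold change 1.07, SE 0.16, and 1.42, SE 0.21; edgeR adjusted p 2.31e-05 and 1.37e-05); in MB49 both rose as well (2.70, SE 0.17, and 0.81, SE 0.18; adjusted p 4.79e-10 and 0.000735). Of 39 measured TGF-β and BMP pathway genes, 8 were called higher and 18 lower in KPC and 12 higher and 12 lower in MB49. Opposite calls numbered 4 (6.20% of all), and these include Id2 itself.

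Vdr is the nuclear receptor for vitamin D. Irradiated KPC libraries had 7.35, 8.16 and 9.24 CPM of Vdr, against 38.1, 41.96 and 51.2 CPM in KPC controls (log2 ratio -2.34), and irradiated MB49 libraries 25.4, 23.3 and 21.4 CPM, against 9.06, 10.6 and 8.897 CPM in MB49 controls (log2 ratio 1.25). MB49 lay above KPC after 8 Gy and KPC above MB49 in controls. Vdr had TMM-scaled log2 fold changes of -2.02 (SE 0.15) in KPC and 1.59 (SE 0.15) in MB49. Per3, a period protein of the circadian clock, and Dbp, a bZIP factor whose RNA the clock drives, had ratios of the same signs. Per3 had 9.12, 9.87 and 9.34 CPM in irradiated KPC libraries, against 20.7, 25.8 and 33.5 CPM in KPC controls (log2 ratio -1.45), and 12.2, 11.2 and 10.2 CPM in irradiated MB49 libraries, against 3.88, 5.32 and 3.86 CPM in MB49 controls (log2 ratio 1.27). In KPC, Dbp stood at 39.1, 36.8 and 46.4 CPM after 8 Gy and at 96.7, 95.4 and 84.1 CPM in controls, and in MB49 at 39.1, 37.4 and 39.3 CPM after 8 Gy and at 10.2, 8.702 and 15.3 CPM in controls, with log2 ratios of -1.17 in KPC and 1.72 in MB49. For Dbp the 3 irradiated KPC and 3 irradiated MB49 libraries overlapped, at 36.8 to 46.4 and 37.4 to 39.3 CPM, while the control means were 2.96 log2 units apart. Sphk2, on the other strand across Dbp in the reference annotation, fell in both lines (log2 fold change -2.46, SE 0.16, and -2.22, SE 0.16; edgeR adjusted p 5.58e-10 and 1.51e-09). Among other clock genes, Per1 rose in both lines (0.59, SE 0.16, and 0.55, SE 0.17; adjusted p 0.00463 and 0.00729), and Per2 fell in KPC (-1.28, SE 0.17; adjusted p 3.82e-06) with a log2 fold change of -0.15 (SE 0.17; adjusted p 0.429) in MB49. Of 30 measured circadian and nuclear receptor genes, 8 were called higher and 14 lower in KPC, and 10 higher and 10 lower in MB49. Opposite calls numbered 6 (6.20% of all). These include the 3 members Dbp, Per3 and Vdr, chosen for their opposite ratios, so the count is no independent view of the list.

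Surface and signalling proteins made up another group. Sema7a is a membrane-anchored semaphorin that signals through integrins and plexin C1. The KPC libraries held 8.07, 7.06 and 8.199 CPM of Sema7a after 8 Gy and 27.7, 34.9 and 34.7 CPM without it (log2 ratio -1.99), and the MB49 libraries 44.9, 41.5 and 34.04 CPM after 8 Gy and 16.1, 16.1 and 14.5 CPM without it (log2 ratio 1.34). On the TMM scale the log2 fold change of Sema7a was -1.67 (SE 0.15) in KPC and 1.67 (SE 0.14) in MB49. Of 48 measured axon guidance genes, a list that holds Sema7a, 16 were called higher and 14 lower in KPC and 20 higher and 8 lower in MB49. Opposite calls numbered 3 (6.20% of all), and these include Sema7a itself. Mcam (CD146), an adhesion molecule of the immunoglobulin family, had the highest MB49 ratio of the 28 and the KPC ratio nearest to 0. Irradiated KPC libraries had 40.4, 39.3 and 37.4 CPM of Mcam, against 65.9, 79.6 and 90.2 CPM in KPC controls (log2 ratio -1.001), and irradiated MB49 libraries 23.3, 19.4 and 21.9 CPM, against 2.31, 2.07 and 3.86 CPM in MB49 controls (log2 ratio 2.76). Its KPC ratio of -1.001 lay at the threshold itself. Of 27 measured integrin and adhesion genes, 15 were called higher and 4 lower in KPC and 13 higher and 8 lower in MB49, with 7 opposite calls (6.20% of all). Those 7 include the 2 members Icam1 and Mcam, chosen for their opposite ratios. Icam1 and Mcam moved in opposite ways from each other in each line. Ccdc88c encodes Daple, which binds Dishevelled and activates G proteins. Ccdc88c had 21.7, 18.1 and 18.3 CPM in irradiated KPC libraries, against 48.9, 67.4 and 91.6 CPM in KPC controls (log2 ratio -1.81), and 52.6, 47.5 and 39.5 CPM in irradiated MB49 libraries, against 20.9, 19.8 and 19.2 CPM in MB49 controls (log2 ratio 1.203). Its KPC controls spread from 48.9 to 91.6 CPM, a wider range than in the other 3 groups. Fndc10, which encodes a membrane protein with a fibronectin type III domain, had overlapping levels in the irradiated lines. Fndc10 averaged 14.3 ± 0.342 CPM in irradiated KPC cells and 46.1 ± 2.94 CPM in KPC controls, and 16.1 ± 2.15 CPM in irradiated MB49 cells and 4.37 ± 0.339 CPM in MB49 controls (SD, n = 3 each; log2 ratios -1.65 in KPC and 1.77 in MB49).

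The Mcam promoter window (chr9:44134408-44134707, + strand, GRCm38.p6) is printed because it holds the one full cyclic AMP response element, TGACGTCA, found among the 29 member windows, against 3.65% of all 7280. It is in capitals, begins 29 bases before the annotated start and contains 2 overlapping copies of its core TGACG, one on each strand.
Mcam promoter: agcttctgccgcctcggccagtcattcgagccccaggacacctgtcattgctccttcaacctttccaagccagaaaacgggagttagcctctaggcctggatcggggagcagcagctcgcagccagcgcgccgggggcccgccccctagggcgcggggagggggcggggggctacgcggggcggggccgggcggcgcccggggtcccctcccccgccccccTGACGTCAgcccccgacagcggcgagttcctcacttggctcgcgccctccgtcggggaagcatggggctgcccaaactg
That core lay in 3 of 10 windows of genes higher in KPC and 9 of 19 of genes higher in MB49, against 34.6% of all windows. CACGTG, the E-box that clock factors bind, lay in 1 of the 10 and 0 of the 19, against 11.3%, and so was not in the windows of Per3 and Dbp. The CCAAT box (CCAAT) lay in 4 of 10 and 11 of 19 windows (39.0% of all) and the GC box (GGGCGG) in 6 of 10 and 14 of 19 (69.6%). AP-1 (TGANTCA), the interferon-stimulated response element and the E2F motif TTTCCCGC lay in 0 of the 29, against 4.70%, 2.95% and 2.46% of all. The NF-κB motif lay in 0 of 10 and 1 of 19 (1.44%), the E2F motif TTTGGCGC in 0 and 2 (1.14%), the p53 motif in 2 and 1 (6.39%), CHR (TTTGAA) in 1 and 2 (11.2%) and the TEAD motif (GGAATG) in 1 and 2 (11.2%).

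Ifi27 is an interferon-stimulated gene whose product sits in mitochondrial and nuclear membranes. The KPC libraries held 46.9, 50.8 and 46.8 CPM of Ifi27 after 8 Gy and 229, 217 and 172 CPM without it (log2 ratio -2.08), and the MB49 libraries 117, 132 and 142 CPM after 8 Gy and 34.5, 33.5 and 43.5 CPM without it (log2 ratio 1.79). On the TMM scale the log2 fold change of Ifi27 was -1.72 (SE 0.14) in KPC and 2.103 (SE 0.15) in MB49. On the list of interferon-stimulated genes, 51 of 53 measured genes were called higher in KPC and 52 in MB49, with medians of 4.24 and 4.86. The 1 gene called lower, in KPC, was Ifi27 itself, and 0 were called lower in MB49. Ifi27 was thus also the 1 gene of this list called in opposite directions. Its relative Ifi27l2a rose in both lines, with 23.1, 24.6 and 25.3 CPM in irradiated KPC libraries and 0.400, 0.549 and 0.232 CPM in KPC controls, and 6.74, 7.30 and 9.47 CPM in irradiated MB49 libraries and 0.607, 0.735 and 1.27 CPM in MB49 controls (edgeR adjusted p 2.99e-12 and 1.60e-09).

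A further group of the 28 encode proteins annotated to mitochondria. Of the 26 with a gene ontology annotation in the deposited table, 8 were annotated to the mitochondrion (30.8%: Mcee, Mrpl34, Nthl1, Micos10, Ifi27, Ndufb6, Tmem8b and Nudt8), against 2 of the 19 genes higher in KPC and 12.5% of the genes past the level minimum. Of these 8, Ifi27 and Tmem8b alone also met the rule with both TMM factors and DESeq2 size factors. Membership of the others depended on the scaling. Ndufb6 is an accessory subunit of respiratory complex I. Irradiated KPC libraries had 25, 25.2 and 22.6 CPM of Ndufb6, against 83.2, 60.5 and 45.1 CPM in KPC controls (log2 ratio -1.36), and irradiated MB49 libraries 40.6, 53.5 and 56.1 CPM, against 21.2, 19.4 and 31.4 CPM in MB49 controls (log2 ratio 1.05). Micos10 shapes the junctions of the inner membrane folds. Micos10 had 37.5, 40.2 and 40 CPM in irradiated KPC libraries, against 108, 100.4 and 66.1 CPM in KPC controls (log2 ratio -1.21), and 41.6, 57.4 and 68.2 CPM in irradiated MB49 libraries, against 21.4, 21.8 and 37.1 CPM in MB49 controls (log2 ratio 1.04). In both, MB49 control replicate 3 was the highest of the 3 MB49 controls and KPC control replicate 3 the lowest of the 3 KPC controls, each toward its irradiated group. Mrpl34, a protein of the large mitochondrial ribosomal subunit, lay near the threshold in MB49. Mrpl34 averaged 17.7 ± 0.457 CPM in irradiated KPC cells and 47.2 ± 9.25 CPM in KPC controls, and 19.7 ± 1.59 CPM in irradiated MB49 cells and 9.57 ± 3.31 CPM in MB49 controls (SD, n = 3 each; log2 ratios -1.39 in KPC and 1.004 in MB49). Mcee, an epimerase of propionate breakdown, had low levels throughout. Its means were 4.04 ± 0.385 CPM in irradiated and 8.93 ± 2.12 CPM in control KPC cells, and 7.85 ± 1.36 CPM in irradiated and 2.47 ± 0.621 CPM in control MB49 cells (SD, n = 3 each), with log2 ratios of -1.05 in KPC and 1.49 in MB49. Nthl1, a DNA glycosylase of base excision repair, lay near the threshold in both lines. Nthl1 averaged 8.02 ± 0.469 CPM in irradiated KPC cells and 16.9 ± 1.02 CPM in KPC controls, and 9.18 ± 0.6798 CPM in irradiated MB49 cells and 4.14 ± 1.25 CPM in MB49 controls (SD, n = 3 each; log2 ratios -1.02 in KPC and 1.06 in MB49). Nudt8, a Nudix hydrolase, was similar. Its means were 12.9 ± 1.91 CPM in irradiated and 27.8 ± 4.06 CPM in control KPC cells, and 24.96 ± 2.74 CPM in irradiated and 11.4 ± 1.62 CPM in control MB49 cells (SD, n = 3 each), with log2 ratios of -1.08 in KPC and 1.09 in MB49.

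Sptssa, a small subunit of serine palmitoyltransferase, had overlapping controls in the 2 lines. Sptssa averaged 10.9 ± 1.51 CPM in irradiated KPC cells and 24.6 ± 5.46 CPM in KPC controls, and 55.3 ± 18.9 CPM in irradiated MB49 cells and 16.1 ± 5.26 CPM in MB49 controls (SD, n = 3 each; log2 ratios -1.13 in KPC and 1.75 in MB49). Cebpzos, a short gene named for lying antisense to Cebpz, was higher in MB49 after 8 Gy and in KPC in controls. Its means were 10.1 ± 0.598 CPM in irradiated and 25.8 ± 6.61 CPM in control KPC cells, and 15.4 ± 4.202 CPM in irradiated and 5.95 ± 0.8196 CPM in control MB49 cells (SD, n = 3 each), with log2 ratios of -1.31 in KPC and 1.300 in MB49. Cebpz fell in both lines (log2 fold change -1.14, SE 0.18, and -1.72, SE 0.18; edgeR adjusted p 2.17e-05 and 1.93e-07). Smim11, Smim36 and Tmem205, membrane proteins, had log2 ratios between -1.72 and -1.09 in KPC and between 1.08 and 2.21 in MB49. Ier5l, of the immediate early response 5 family, had the lowest KPC ratio of the protein-coding members. Irradiated KPC libraries had 56.7, 44.3 and 69.5 CPM of Ier5l, against 425, 459 and 415 CPM in KPC controls (log2 ratio -2.92), and irradiated MB49 libraries 36.4, 38.3 and 31.1 CPM, against 13.1, 12.5 and 24.6 CPM in MB49 controls (log2 ratio 1.05). Nanos1, an RNA-binding translational repressor, overlapped between the irradiated lines. Its means were 6.53 ± 0.858 CPM in irradiated and 26.4 ± 0.629 CPM in control KPC cells, and 6.97 ± 0.873 CPM in irradiated and 2.79 ± 0.498 CPM in control MB49 cells (SD, n = 3 each), with log2 ratios of -1.94 in KPC and 1.18 in MB49. Tmem8b had log2 ratios of -1.41 in KPC and 1.16 in MB49. The rest were 3 clone-named genes (1190005I06Rik, 1700105P06Rik and 2610029K11Rik) and the pseudogenes Gm11518 and Rps13-ps1. Rps13-ps1 had 10.3 and 14.8 CPM in MB49 control replicates 1 and 2 and 255 CPM in replicate 3, and it was the one member not called in the edgeR test of the difference between the responses, which called 42.9% of all genes.

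Both groups of genes were shorter by median than the genes past the level minimum. The median length in the deposited table was 1827 bases for the 19 genes higher in KPC, 1208 bases for the 28 and 2867 bases for all 9297. Genes under 1000 bases made up 4 of the 19, 12 of the 28 (42.9%) and 7.83% of all. In the shortest eighth of all genes, with a median length of 904 bases, the median log2 ratio was -0.50 in KPC and 0.41 in MB49, and in the longest eighth, of 7229 bases, it was -0.51 and -0.61. That shortest eighth held 6 of the 19 and 14 of the 28. Genes under 1000 bases took 13.1 to 13.3% of the counts of irradiated KPC libraries and 15.6, 14.3 and 11.8% of KPC controls, against 14.3 to 18.0% in irradiated MB49 libraries and 7.69, 7.41 and 10.3% in MB49 controls. The part of this shift in the results for the 12 short genes was not tested.

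**Figure D3:**
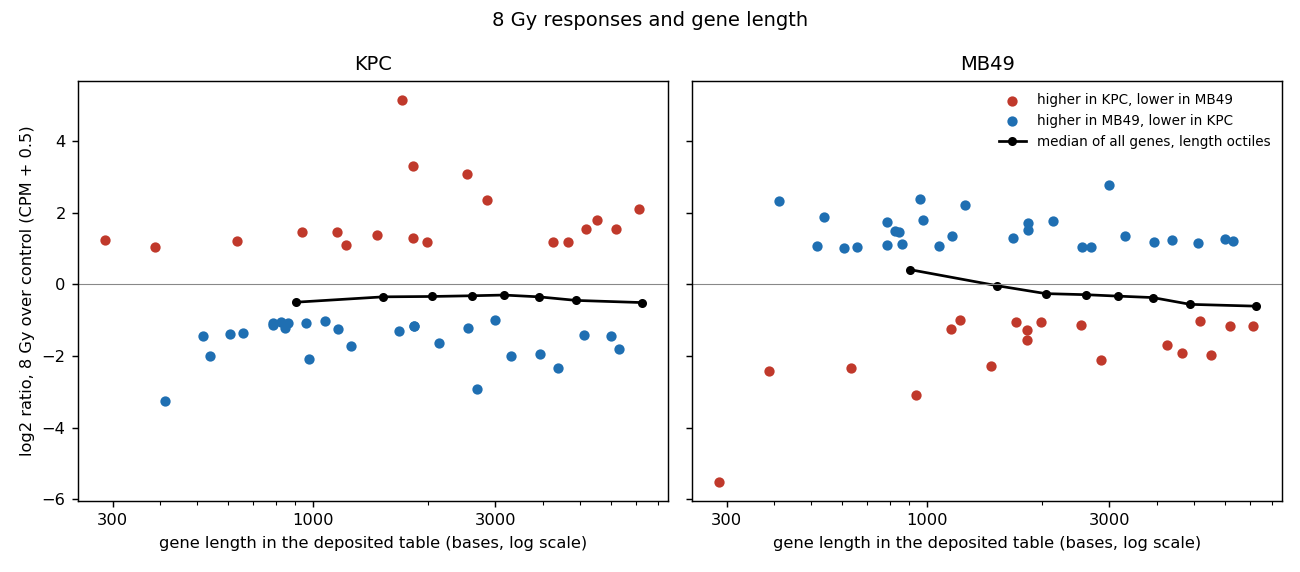
Log2 ratio of 8 Gy over control (y axis) against gene length in bases (x axis, log scale) in KPC (left) and MB49 (right) for the 19 (red) and 28 (blue) genes; the black line joins the medians of all 9297 genes in 8 equal classes of length. In MB49 the black line runs from 0.41 in the shortest class to -0.61 in the longest, and in KPC it stays between -0.51 and -0.30.

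Genes that overlap a member in the reference annotation (GENCODE M21, matched by gene ID) gave a further view, because no strand setting of the counting is given. Of the 46 annotated members, 20 overlapped a gene on the other strand. Of the overlapping genes on either strand, 9 passed the same level minimum, beside 9 members, and 0 met the opposite-response rule themselves. Only 0.506% of all 9297 genes met it, so nothing is read from that 0. Their ratios had opposite signs in the lines in 3 of the 9 pairs, and none of those 3 reached 2-fold in both lines. Mmd, which overlaps Smim36 on the same strand, had log2 ratios of 0.15 in KPC and 2.19 in MB49, and reads of both cannot be told apart by the table where they overlap.

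Which line had the higher level often changed with radiation. Among the 19, levels after 8 Gy were higher in KPC in 17 and in MB49 in 2 (Tmcc3 and Icam1), while in controls they were higher in KPC in 2, higher in MB49 in 12 and overlapping in 5. Among the 28, levels after 8 Gy were higher in KPC in 4, higher in MB49 in 20 and overlapping in 4, while in controls they were higher in KPC in 23 and overlapping in 5. Over all 9297 genes, irradiated libraries were higher in KPC in 32.0% and in MB49 in 39.5%, and controls in KPC in 33.0% and in MB49 in 35.4%. The order turned without overlap in either state in 10 of the 19 and 15 of the 28. In 22 of the 28 the lines lay closer together after 8 Gy than in controls, and in 6 of the 19. For the turned order and for the closer lines no share over all 9297 genes is given, so these counts cannot be set against other genes. The rule used the same libraries, so the counts describe the genes and test nothing.

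**Figure D4:**
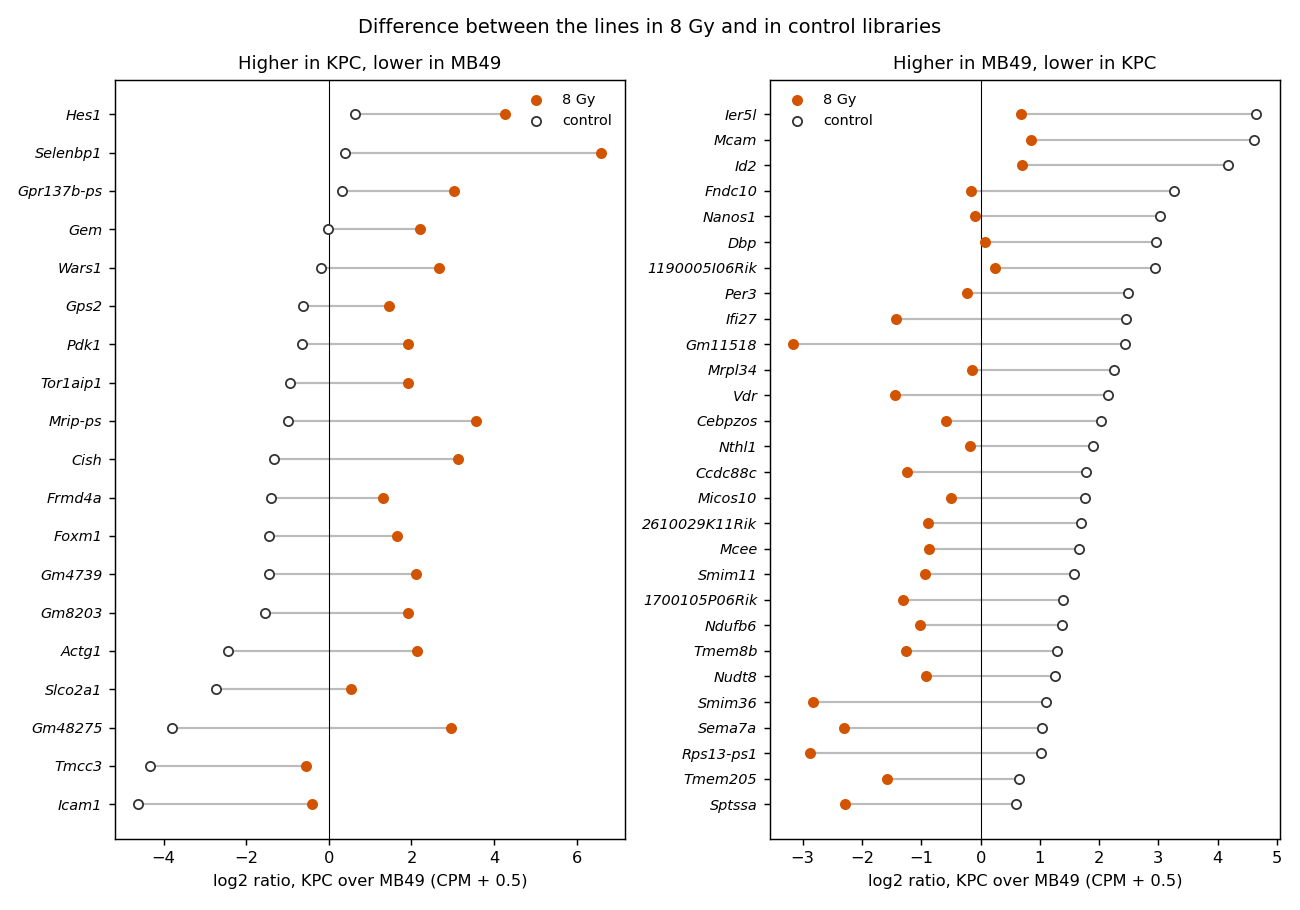
Log2 ratio of mean CPM (+ 0.5) in KPC over MB49 (x axis) in 8 Gy libraries (filled) and control libraries (open) for the 19 genes higher in KPC (left) and the 28 higher in MB49 (right). Points move right with radiation on the left panel and left on the right panel, as the rule requires. Most filled points in the right panel lie nearer to 0 than the open ones, in 22 of 28 genes, with no share over all genes given.

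Control replicate 3 of each line lay toward the irradiated group for many members. For the 28 genes, MB49 control replicate 3 was the MB49 control nearest to the irradiated libraries in 22, and KPC control replicate 3 the nearest KPC control in 18; for the 19 genes the counts were 12 and 15. Among all genes at least 2-fold higher in MB49 the share for its replicate 3 was 54.2% and among those lower 51.2%; for KPC replicate 3 it was 36.9% of the genes lower and 45.8% of those higher. Without KPC control replicate 3, 22 genes were higher in KPC and lower in MB49 and 46 the reverse, against 19 and 28 with all libraries. Without MB49 control replicate 3 the counts were 18 and 40. With both left out, a choice made after seeing the data, they were 24 and 67. Of the 47 genes, 29 met the rule in each of the 12 sets that left out 1 library, among them Foxm1, Hes1, Cish, Wars1, Tmcc3, Tor1aip1, Vdr, Per3, Sema7a, Ccdc88c and Ifi27.

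Scaling changed which genes met the rule. With TMM factors 42 genes met the rule (20 higher in KPC and 22 higher in MB49), of which 23 were among the 47; with DESeq2 size factors 41 did (22 and 19), of which 22 were. Those 22 met the rule under all 3 scalings: Foxm1, Hes1, Cish, Wars1, Tmcc3, Tor1aip1, 3 pseudogenes and Gm48275 higher in KPC, and Vdr, Per3, Sema7a, Ccdc88c, Ifi27, Fndc10, Nanos1, Smim11, Smim36, Tmem8b, Ier5l and 1 pseudogene higher in MB49. Actg1, Icam1, Selenbp1, Id2, Mcam and Dbp were not among them, since one of their 2 responses lay under 2-fold with TMM scaling. For Actg1 the TMM-scaled log2 fold change in MB49 was -0.97, for Icam1 -0.85 and for Selenbp1 -0.89. In KPC it was -0.73 for Id2, -0.62 for Mcam and -0.79 for Dbp. Just inside the threshold by the reported scaling lay Gps2, Pdk1 and Gem among the 19 and Mcam, Mrpl34 and Nthl1 among the 28. Among those just outside were Csrnp1 (log2 ratios 0.97 in KPC and -1.61 in MB49), Stag1 (0.93 and -1.63), Zswim7 (-0.999 and 1.44), Vmac (-1.10 and 0.99) and Rpl35a (-0.98 and 1.24).

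**Figure D5:**
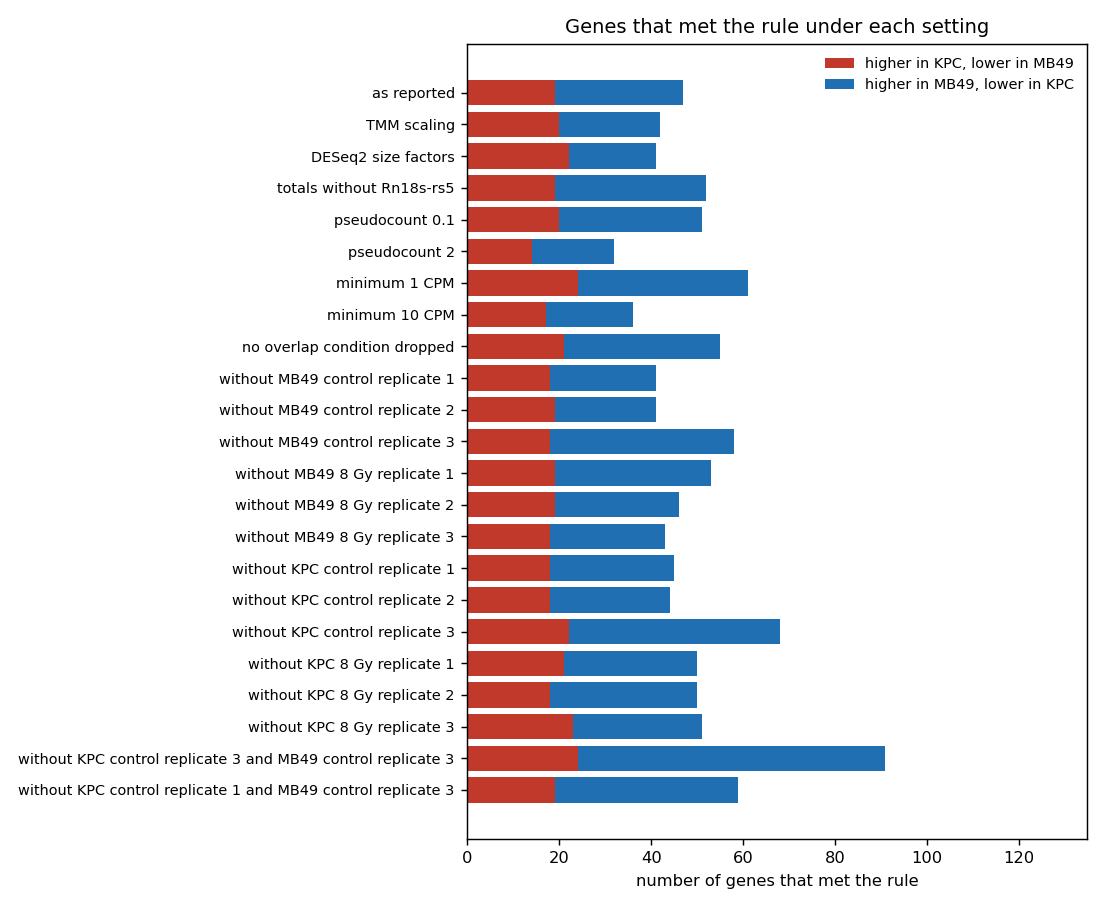
Number of genes that met the rule (x axis) under each setting tried except the 1.5-fold threshold, split into those higher in KPC (red) and those higher in MB49 (blue). The total is 47 as reported, 41 to 68 with 1 library left out and 91 with control replicate 3 of both lines left out.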

How the data were processed

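The deposited table holds the authors' estimated counts per gene for the 12 libraries, not scaled between them, and 6.2 to 8.7% of the values in a library had decimals. Libraries were made with a stranded mRNA kit from TRIzol RNA, per the labels' protocols. The submitters' processing notes name fastp, HISAT2, StringTie and GRCm39; the counting tool and its strand setting are not given in the sources used here, and the deposited group means were not used. Counts were divided by library totals for the rule and rounded to whole numbers for edgeR 4.0.16 (R 4.3.3; filterByExpr, TMM, robust quasi-likelihood, 1 coefficient per group, 14362 genes, Benjamini-Hochberg adjusted p under 0.05), which was tested on simulated data first. DESeq2 1.42.0 was an alternative. The 525 rows without a symbol keep their gene ID. The members, gene lists and motifs were chosen with earlier results of these data known. Named were up to 15 members a direction ranked by the smaller absolute ratio, without clone-named genes and pseudogenes, plus members on a gene list, those nearest the threshold and others by role. Non-member genes given with values are relatives or overlapping neighbours of a member, picked for that. GENCODE M21 (GRCm38), another build than the table's, served for biotypes and overlaps by gene ID only, and the first RefSeq promoter window of each gene was used, with no coordinates taken to GRCm39. The lowest sum of a member over the 3 libraries of a group was 50 counts. Replicate numbers, shared by the groups, did not enter the main fit. Settings tried were other scalings, pseudocounts, level minimums, folds and left-out libraries.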

Additional observations from a re-analysis of the deposited data

Results flagged for a closer look

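The 47 genes stand out because their irradiated and control libraries separated in opposite directions in the 2 lines: 19 genes were higher in KPC and lower in MB49, and 28 were higher in MB49 and lower in KPC. That difference chose the genes, so it was not tested on them.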

How the results depend on the processing

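In 846 recomputations with other pseudocounts, TMM scaling or 1 library of its line left out, no log2 ratio of a member changed sign. The no-overlap condition fixed that outcome for pseudocounts and left-out libraries. The minimum absolute ratio of 1 left TMM scaling little room to change it, so nothing is read from it. Of the 846, 69 moved by more than the spread between replicates. With a 1.5-fold threshold 242 genes met the rule, 76 higher in KPC and 166 higher in MB49. A pseudocount of 2 left 18 genes higher in MB49. Without KPC control replicate 3 and MB49 control replicate 3, a setting added after seeing the data, 91 met it, 67 of them higher in MB49; without KPC control replicate 1 and MB49 control replicate 3, also added, 59 did. Leaving out 1 library at a time gave 41 to 68 genes, with 18 to 23 higher in KPC and 22 to 46 higher in MB49. In edgeR it gave 8297 to 9523 calls in KPC, 8932 to 9829 in MB49 and 5451 to 6547 for the difference between the responses. Deviations of same-numbered libraries had correlations of -0.12, -0.02 and 0.02 in KPC and 0.17, -0.18 and 0.06 in MB49. So few libraries a group cannot show whether the numbers mark pairs. With the replicate block edgeR called 9029 genes in KPC, 9528 in MB49 and 6012 for the difference, against 9086, 9606 and 6162 without it. DESeq2 called 9036, 9510 and 6380. Searching the 250 bases before the start alone changed 6 of 30 motif shares. The 3 libraries a group, counts as low as 50 over a group and an unknown strand setting limit the low-level, pseudogene and antisense members most.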
